A study of Mus musculus with 6 samples.

Results

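A set of 10 genes that encode fibroblast growth factors (FGFs) or FGF-like proteins was followed from mouse embryonic stem cells (ESCs) to neuronal cells (NCs): Fgf1, Fgf3, Fgf4, Fgf5, Fgf8, Fgf9, Fgf10, Fgf13, Fgf15 and Fgf17. They were taken by name from an RNA-seq table of 23235 gene rows, in which each of the 10 had 1 row. The cells of both groups were E14Tg2a, a pluripotent ESC line, at passages 37 to 40. ESCs (3 samples) were kept with leukemia inhibitory factor (LIF), which holds mouse ESCs in the pluripotent state. NCs (3 samples) were monolayers of the same line grown for 2 days (48 h) without LIF in 1 μM retinoic acid (RA), a vitamin A derivative that drives neural differentiation. The comparison asks which transcripts differ between the 2 states of a single cell line. The table gives 1 FPKM value per gene and condition (sequenced fragments per kilobase of transcript, set against the total mapped), which pools the 3 samples of that condition. No value of a single sample was used here, so the values below carry no SD or n, no difference was tested here, and none is set against the spread between replicates.

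FGFs are signalling proteins that bind FGF receptor tyrosine kinases at the cell surface together with heparan sulfate chains. The receptors signal through the adaptor FRS2 and the RAS, RAF, MEK and ERK kinases, and ERK activity in turn raises ETV transcription factors and the Sprouty inhibitors of the pathway. In mouse ESCs and in the inner cell mass of the embryo, Fgf4 is the ligand best known for driving ERK, and it is an established target of the pluripotency factors Oct4 and Sox2. Fgf5 marks the primed epiblast, Fgf8 and Fgf17 pattern the gastrula and the brain, and Fgf3, Fgf10 and Fgf15 act in the ear, limb and hindbrain. Fgf13 belongs to the FGF homologous factors, which stay inside the cell and bind sodium channels and microtubules, so it encodes no secreted ligand.

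The sequences just upstream of 3 of the genes are shown to set 2 genes with lower levels in NCs (Fgf4 and Fgf5) beside one that stayed near its level (Fgf3). Each is the 250 bases before the start of the RefSeq transcript on the plus strand of GRCm38.p6, printed 5′ to 3′, with capitals where a script matched 1 of the motifs given after the sequences, on either strand. The Fgf4 window is chr7:144861136-144861385, the Fgf5 window is chr5:98253934-98254183 and the Fgf3 window is chr7:144838362-144838611.
Fgf4: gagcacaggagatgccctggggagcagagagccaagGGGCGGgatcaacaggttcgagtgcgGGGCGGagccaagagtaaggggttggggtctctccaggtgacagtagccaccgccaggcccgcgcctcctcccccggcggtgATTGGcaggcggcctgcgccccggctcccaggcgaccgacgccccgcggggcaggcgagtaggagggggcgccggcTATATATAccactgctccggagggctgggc
Fgf5: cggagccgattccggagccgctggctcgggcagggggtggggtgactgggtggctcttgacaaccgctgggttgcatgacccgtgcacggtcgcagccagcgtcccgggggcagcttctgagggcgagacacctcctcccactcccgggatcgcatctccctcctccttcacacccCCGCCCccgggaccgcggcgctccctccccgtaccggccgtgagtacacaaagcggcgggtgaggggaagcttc
Fgf3: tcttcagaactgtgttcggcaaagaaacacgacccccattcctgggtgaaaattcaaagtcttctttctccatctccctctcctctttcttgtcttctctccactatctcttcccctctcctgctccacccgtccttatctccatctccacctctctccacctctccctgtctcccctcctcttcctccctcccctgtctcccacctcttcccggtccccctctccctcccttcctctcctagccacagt
The Fgf4 window held GGGCGG at 214 to 209 and at 188 to 183 bases before the start, the reverse complement of CCAAT at 106 to 102, and overlapping matches to TATATA at 30 to 25 and 28 to 23. The Fgf5 window held only GGGCGG, on the reverse strand at 74 to 69 bases before the start. In the Fgf3 window none of the motifs searched was found. The motifs were sought on both strands and chosen with the sequences in view. The background was 32851 windows of this length, each likewise taken just before a transcript start. In these, GGGCGG, the core of the box bound by SP1, was present in 32.7%, and CCAAT, the box bound by NF-Y, in 33.8%. Of the letters known from TATA boxes, TATATA was present in 5.25% of windows and TATAAA in 12.4%. The half-site of nuclear receptors, AGGTCA, was present in 14.0%, and the octamer of POU factors, ATGCAAAT, in 1.60%. The GC content was 71.2% for Fgf4, 70.8% for Fgf5 and 55.2% for Fgf3, beside a median of 52.4% over all windows. These matches describe the letters of the windows and were not tested as binding sites. Windows were at hand for 6 of the 10 genes (also Fgf9, Fgf10 and Fgf13), and not for Fgf1, Fgf8, Fgf15 and Fgf17. GGGCGG was also found upstream of genes that were not lower in NCs. An Fgf13 window held 3 matches at 74.8% GC and another held 4 at 74.4% GC, while its remaining windows held none. The Fgf10 window held 1 at 61.2% GC, and the Fgf9 window (44.8% GC) held none. The 3 windows shown therefore do not stand for the others.

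In ESCs, 1 gene supplied most of the FGF transcript. Fgf4 stood at 65.7 FPKM, 10.9-fold above the next gene, Fgf17, at 6.05 FPKM. Fgf15 followed at 4.57 FPKM and Fgf5 at 3.89 FPKM. Fgf13 (1.86 FPKM), Fgf8 (1.51 FPKM), Fgf3 (1.45 FPKM) and Fgf1 (1.40 FPKM) lay close together. Fgf10 (0.553 FPKM) and Fgf9 (0.0200 FPKM) were below 1 FPKM. The highest and the lowest level were 3283-fold apart.

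In NCs, no gene stood out. The order was Fgf15 (3.81 FPKM), Fgf13 (3.51 FPKM), Fgf1 (3.21 FPKM) and Fgf3 (1.72 FPKM), with Fgf8 (0.934 FPKM), Fgf4 (0.818 FPKM), Fgf10 (0.674 FPKM), Fgf5 (0.561 FPKM), Fgf9 (0.511 FPKM) and Fgf17 (0.206 FPKM) below 1 FPKM. The leading gene was only 1.09-fold above the next, and the whole range spanned 18.5-fold. At least 5 FPKM was reached by 2 genes in ESCs and by 0 in NCs, and at least 1 FPKM by 8 genes in ESCs and 4 in NCs. Whether neighbours in either order differ beyond the spread between samples could not be judged from 1 value per condition.

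**Figure D1:**
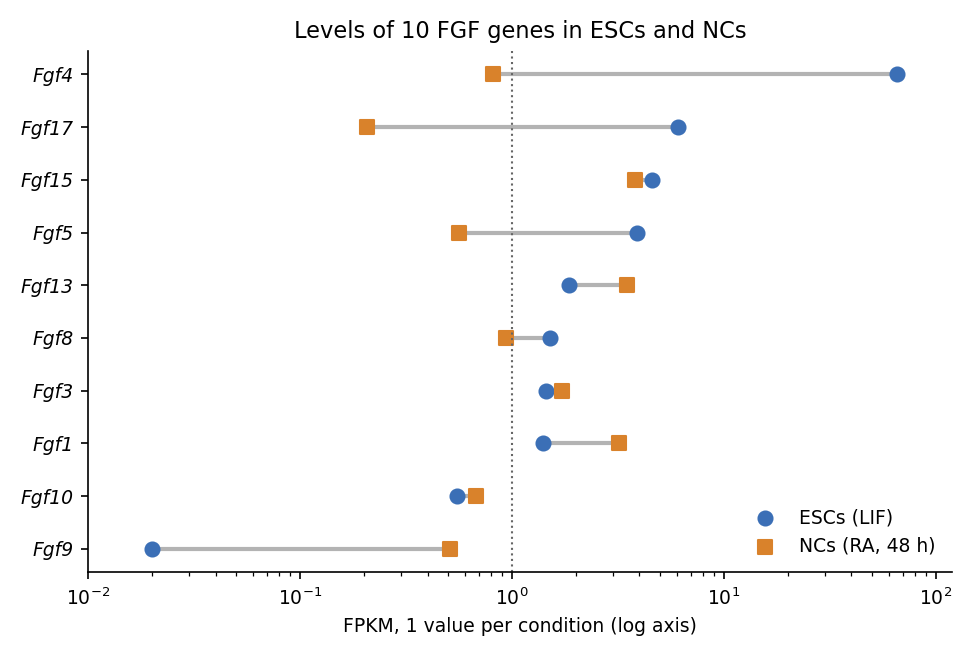
Level of each of the 10 FGF genes in ESCs (blue circles) and NCs (orange squares), in FPKM on a log axis, 1 value per condition without error bars; the dotted line marks 1 FPKM. Fgf4 goes from 65.7 FPKM in ESCs to 0.818 FPKM in NCs, and every NC value lies below 5 FPKM.

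Differences are given as the log2 of the NC value over the ESC value with 0.1 FPKM added to both, which understates the change of low genes, and folds as the plain ratio of the 2 FPKM values. A gene was called higher or lower when this log2 difference reached 2-fold, among the rows with at least 1 FPKM in either condition. Of the 10 genes, 8 passed that filter. Fgf1 was called higher, Fgf4, Fgf5 and Fgf17 were called lower, and 4 genes (Fgf3, Fgf8, Fgf13 and Fgf15) stayed within 2-fold. Over all 13293 rows that passed, 12.0% were called higher and 10.2% lower. Fgf4, Fgf5, Fgf8 and Fgf17 passed only through their ESC value and Fgf9 and Fgf10 did not pass, so the counts of 1 and 3 do not stand for all members. Over all 10 genes, 5 had the higher FPKM in NCs and 5 in ESCs, and the median log2 difference was -0.01, beside -0.03 for all rows that passed.

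Fgf4 (chromosome 7, 144847367 to 144865243, plus strand, GRCm38) had the largest decrease of the 10. GENCODE places its start before the RefSeq start used for the window above, because it holds a transcript model that starts further upstream. Its level was 80.3-fold lower in NCs (log2 difference -6.16), which was the 33rd largest decrease of the 13293 rows. In the order of all levels it stood at place 1490 of 23235 rows in ESCs and at 13018 in NCs. Its direction was that of the pluripotency genes of the same cells: Pou5f1, the gene of Oct4, stood at 831.9 FPKM in ESCs and 37.1 in NCs, and Nanog at 225 and 13.9 FPKM.

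Fgf17 (chromosome 14, 70636203 to 70642268, minus strand), of the same subfamily as Fgf8, was 29.3-fold lower in NCs (log2 difference -4.33), the 62nd largest decrease. Its NC level of 0.206 FPKM corresponds to about 22.6 fragments if all came from its longest coding transcript of 1689 bases. Fgf5 (chromosome 5, 98254184 to 98277030, plus strand) was 6.93-fold lower (log2 difference -2.59), the 252nd largest decrease. Otx2, Pou3f1 and Dnmt3b, the other markers of the primed epiblast that were listed, were called lower as well. Otx2 went from 37.8 to 0.166 FPKM and so passed the filter only through its ESC value, as Fgf5 did.

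Fgf8 (chromosome 19, 45736798 to 45742915, minus strand) was 1.62-fold lower in NCs (log2 difference -0.64) and so stayed within the limit that Fgf17 passed. Fgf15 (chromosome 7, 144896531 to 144900953, plus strand), the mouse counterpart of the endocrine factor FGF19, was 1.20-fold lower (log2 difference -0.26). That difference turned to 0.03 when each column was rescaled to the same total, so no direction is given for Fgf15. Antisense transcripts Gm26793 and Gm39119 overlap Fgf15, and whether the authors counted reads by strand is not given in the sources used here, so reads from the 2 strands cannot be told apart there.

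Fgf1 (chromosome 18, 38838673 to 38929472, minus strand), the ligand that binds all FGF receptors, was 2.29-fold higher in NCs (log2 difference 1.14). It was the only gene of the 10 called higher, and 1371st in the order of increases. It overlaps Arhgap26 on the opposite strand, which stood at 1.51 FPKM in ESCs and 1.13 in NCs. With 1 FPKM added in place of 0.1, Fgf1 no longer reached 2-fold (log2 difference 0.81).

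Fgf13 (chromosome X, 59062145 to 59568071, minus strand) was 1.88-fold higher (log2 difference 0.88), just under the limit. Fgf3 (chromosome 7, 144838083 to 144844436, plus strand) was 1.18-fold higher (log2 difference 0.23). Fgf10 (chromosome 13, 118669791 to 118792115, plus strand), a ligand of mesenchyme that acts on epithelium, was 1.22-fold higher (log2 difference 0.25) and below 1 FPKM in both conditions.

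Fgf9 (chromosome 14, 58070547 to 58112720, plus strand) had the largest increase on the log2 scale, 2.35, but failed the filter. Its ESC level of 0.0200 FPKM stands for about 4.92 fragments if all came from its longest coding transcript (3593 bases). It lies under the floor of 3 fragments (0.339 FPKM) if all came from the shortest (321 bases). With nothing added to either value, the log2 difference was 4.67, and raising the ESC level to that floor left 0.59. The size of the Fgf9 increase is therefore not settled by these values.

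**Figure D2:**
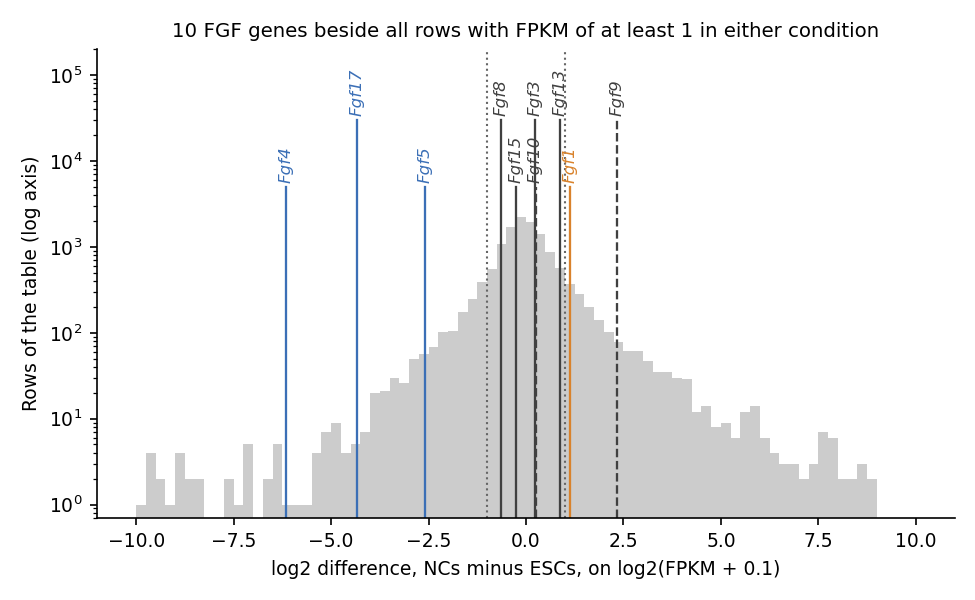
Log2 difference (NCs minus ESCs, on log2 of FPKM + 0.1) of the 10 FGF genes (vertical lines) over the histogram of the 13293 rows with at least 1 FPKM in either condition, with the number of rows on a log axis. Dotted lines mark 2-fold, blue lines genes called lower, the orange line the gene called higher, and dashed lines the 2 genes that failed the filter; Fgf4 at -6.16 and Fgf17 at -4.33 lie in the sparse left tail.

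Since FPKM is scaled to transcript length, the levels of different genes can be added. The 10 genes summed to 87.0 FPKM in ESCs and to 16.0 in NCs, 5.45-fold less. Without Fgf4 the sum was 21.3 FPKM in ESCs and 15.1 in NCs, 1.41-fold less. These sums were not rescaled, and all rows of the table summed to 770592 FPKM in ESCs and 628679 in NCs. The 1.41-fold gap therefore includes the difference between the column totals. Fgf4 made up 75.5% of the sum in ESCs and 5.13% in NCs. In NCs the largest shares were those of Fgf15 (23.9%), Fgf13 (22.0%), Fgf1 (20.1%) and Fgf3 (10.8%), although of these only Fgf1 had been called higher. No gene of the set reached in NCs a level near that of Fgf4 in ESCs. Leaving out Fgf13, the Fgf4 share was 77.2% in ESCs and 6.57% in NCs. The samples were bulk RNA, so fewer cells with a transcript and less of it per cell cannot be told apart.

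**Figure D3:**
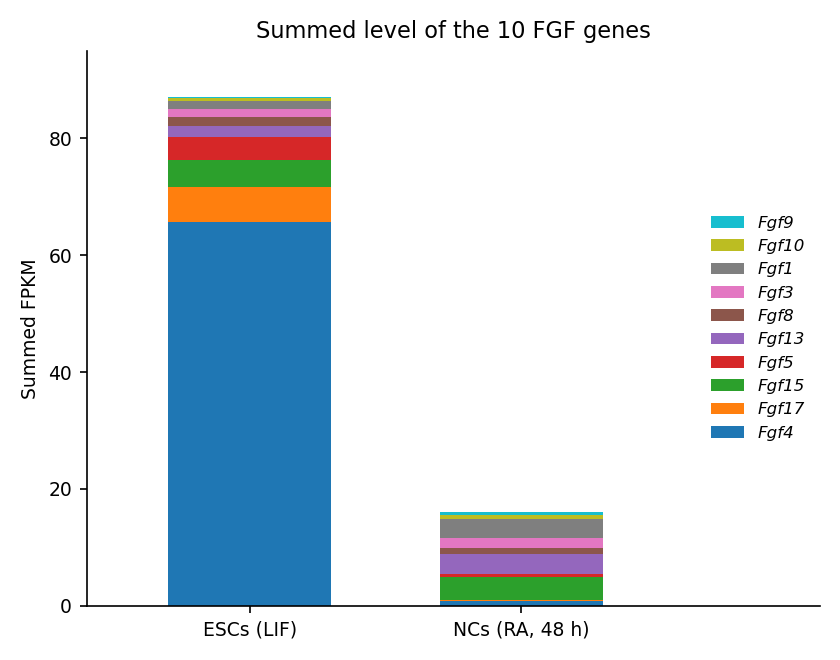
Summed FPKM of the 10 FGF genes in ESCs and NCs as stacked bars from 0, 1 colour per gene, without error bars because there was 1 value per condition. The ESC bar reaches 87.0 FPKM, of which Fgf4 takes 75.5%, and the NC bar reaches 16.0 FPKM.

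The table also held the other 12 FGF genes, of which 3 passed the filter and 0 were called in either direction. Over all rows that passed, 12.0% were called higher and 10.2% lower. Fgf11, another intracellular factor, stood at 2.92 FPKM in ESCs and 1.89 in NCs, Fgf22 at 1.19 and 0.922 FPKM, and Fgf18 at 0.967 and 1.17 FPKM. Fgf21, a metabolic hormone, stood at 0.702 and 0.0820 FPKM, below the filter. Fgf2, a ligand widely used in neural cell culture, was low in both, at 0.0599 and 0.243 FPKM. Fgf6 was listed at 0 in ESCs. With all 22 rows the sum was 93.8 FPKM in ESCs and 21.0 in NCs, and the share of Fgf4 was 70.1% and 3.89%.

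The genes were also summed by subfamily, again without rescaling the columns. The FGF4 subfamily (Fgf4, Fgf5 and Fgf6) summed to 69.6 FPKM in ESCs and 1.39 in NCs, and the FGF8 subfamily (Fgf8, Fgf17 and Fgf18) to 8.53 and 2.31 FPKM. The FGF1 subfamily (Fgf1 and Fgf2) went the other way, from 1.46 to 3.45 FPKM, and so did the FGF9 subfamily (Fgf9, Fgf16 and Fgf20), from 0.0759 to 0.649 FPKM. The FGF7 subfamily with Fgf3 summed to 3.22 FPKM in ESCs and 3.38 in NCs, and the intracellular factors to 5.51 and 5.89 FPKM. The endocrine FGFs summed to 5.39 and 3.95 FPKM.

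Fgf3, Fgf4 and Fgf15 lie side by side on chromosome 7, all on the plus strand. By their GENCODE starts, Fgf3 begins 9.28 kb before Fgf4 and Fgf15 49.2 kb after it. Fgf4 was 80.3-fold lower in NCs while both flanking genes stayed within 2-fold. Between Cttn and Ccnd1, which bound the interval examined, GENCODE lists 9 protein-coding genes, and all 9 had a row. Ccnd1, the gene of cyclin D1, stood at 15.2 FPKM in ESCs and 12.1 in NCs, and Cttn, the gene of cortactin, at 59.9 and 72.4 FPKM. Fadd, an adaptor of death receptors, was 2.63-fold higher in NCs (1.88 and 4.94 FPKM), and the chloride channel gene Ano1 5.22-fold higher (0.247 and 1.29 FPKM). Ppfia1 (15.5 and 17.5 FPKM) and Oraov1 (6.63 and 8.40 FPKM) stayed within 2-fold. Of the 9, Fgf4 alone was called lower, which is near the 10.2% of all rows that passed the filter. Fadd and Ano1 were called higher, beside 12.0% of those rows. The interval was laid out around the FGF genes, so these counts are not a result about the locus.

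**Figure D4:**
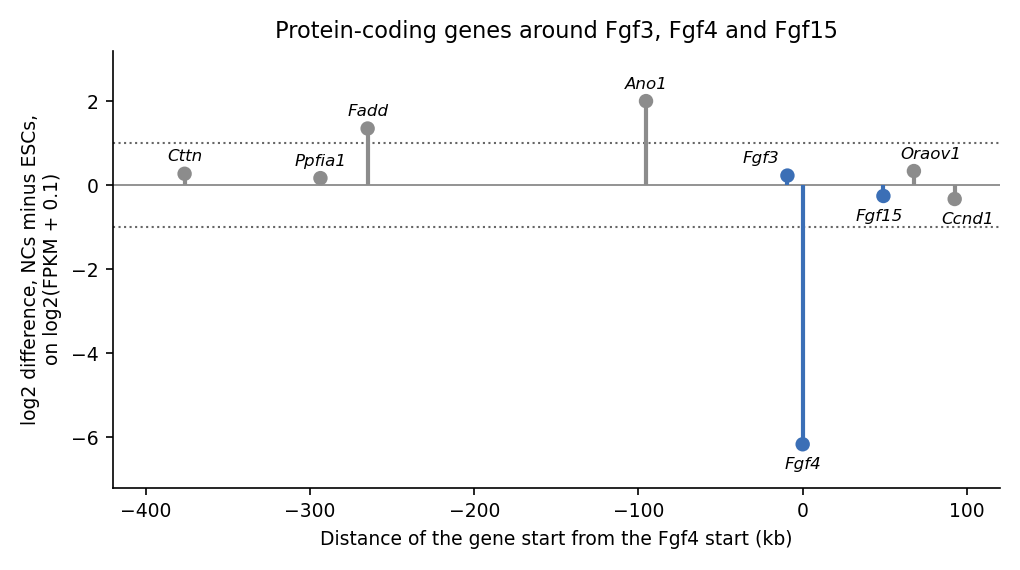
Log2 difference (NCs minus ESCs, on log2 of FPKM + 0.1) of the 9 protein-coding genes from Cttn to Ccnd1, plotted at the distance in kb of each gene's GENCODE start from that of Fgf4; dotted lines mark 2-fold and blue marks the 3 FGF genes. Fgf4 lies at -6.16, with Fgf3 at 0.23 and Fgf15 at -0.26 beside it.

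Of the 5 receptor genes, 3 were called higher and 0 lower, beside 12.0% and 10.2% of all rows that passed the filter. Fgfr2 stood at 7.40 FPKM in ESCs and 26.6 in NCs (3.59-fold higher), Fgfr3 at 1.39 and 6.31 FPKM (4.53-fold higher), and Fgfrl1, which lacks a kinase domain, at 7.07 and 19.2 FPKM (2.71-fold higher). Fgfr1 had the highest level of the 5 in both conditions, at 31.0 and 44.1 FPKM, and Fgfr4 stood at 2.91 and 2.65 FPKM. Both were within 2-fold.

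Among the 7 co-receptors and binding proteins, 5 passed the filter. Of these, 4 were called higher and 1 lower, beside 12.0% and 10.2% over all rows that passed. Flrt3, a membrane protein that binds FGF receptors, was 13.2-fold higher in NCs (1.28 and 16.9 FPKM), and Flrt2 stood at 0.363 and 2.34 FPKM. Klb, the co-receptor of endocrine FGFs, stood at 0.628 and 1.52 FPKM. Flrt2 and Klb passed the filter only through their NC value, so the count of 4 does not stand for the list. The FGF carrier gene Fgfbp3 was higher in NCs (3.79 and 11.6 FPKM) while Fgfbp1 was 2.67-fold lower (11.6 and 4.33 FPKM).

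The signalling genes between receptor and ERK stayed within 2-fold in all 14 measured cases of 15 listed, such as Frs2 (11.4 and 13.1 FPKM), the gene of the receptor adaptor. Most rows of the table stayed within 2-fold as well: 12.0% of those that passed the filter were called higher and 10.2% lower. Among the target transcription factors, 2 of 4 were called lower, beside 10.2% over all rows that passed the filter. Etv5 was 15.4-fold lower in NCs (116 and 7.57 FPKM) and Etv4 4.36-fold lower (11.5 and 2.64 FPKM). Etv1 (3.61 and 2.09 FPKM) and Egr1, an immediate early gene (6.57 and 9.94 FPKM), stayed within 2-fold.

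Of 10 feedback inhibitors, 9 passed the filter, 3 were called lower and 0 higher, beside 10.2% and 12.0% over all rows that passed. Spry4 was 48.7-fold lower in NCs (15.0 and 0.308 FPKM), Spry2 6.78-fold lower (45.7 and 6.74 FPKM), and Il17rd, also known as Sef, 2.93-fold lower (12.6 and 4.28 FPKM). Of these, Spry4 passed the filter only through its ESC value. Not every inhibitor had the lower level in NCs. Dusp6, the gene of an ERK phosphatase, had the higher level in NCs (21.9 and 36.9 FPKM) and stayed within 2-fold. Over the 50 listed genes outside the FGF family, 49 had a row and 46 passed the filter, with 9 called higher, 6 lower and a median log2 difference of 0.21. The 9 are 19.6% and the 6 are 13.0% of the 46, beside 12.0% and 10.2% over all rows, so the share called lower was near the background. Of these 9, 2 encode enzymes that build heparan sulfate.

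**Figure D5:**
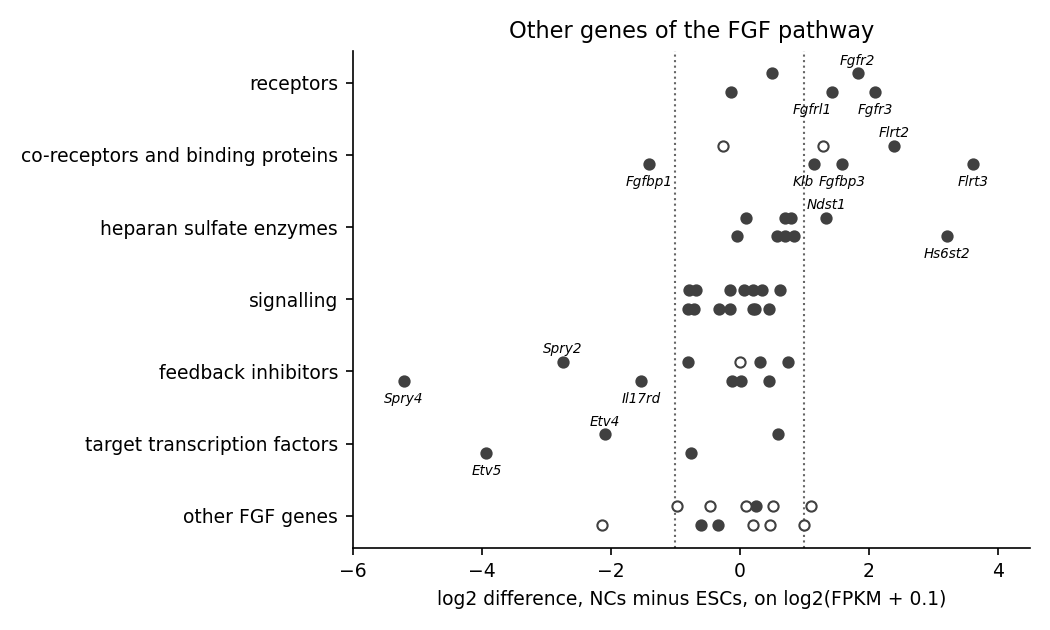
Log2 difference (NCs minus ESCs, on log2 of FPKM + 0.1) of the other genes of the FGF pathway, 1 point per gene and 1 row per list. Open points have less than 1 FPKM in both conditions and are not named. Dotted lines mark 2-fold, and filled points past it are named. Of the 5 receptors, 3 lie past it to the right, and Spry4, Spry2, Etv5 and Etv4 lie past it to the left.

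The identity of the cells was checked against marker genes. All 6 pluripotency markers were called lower in NCs, beside 10.2% of all rows that passed the filter. All 4 genes of the RA response were called higher, such as Cyp26a1 (0.874 and 215 FPKM), beside 12.0% of those rows. Cyp26a1 and Rarb passed only through their NC value. Of 6 neural markers, Sox1 (1.77 and 21.8 FPKM) and Pax6 (3.64 and 65.2 FPKM) of neural progenitors were called higher, while the neuronal gene Tubb3 was called lower (33.4 and 7.54 FPKM). The background shares were again 12.0% and 10.2%. Nes (12.9 and 18.3 FPKM) and Map2 (3.18 and 2.35 FPKM) stayed within 2-fold. Dcx, of young neurons, stood at 0.0140 FPKM in ESCs and 0.334 in NCs, higher in NCs but below the filter. The neural markers thus went in both directions, so the name NCs is used here as the group's label. Of 5 endoderm markers, 3 were called higher (Gata6, Sox17 and Foxa2), beside 12.0% of all rows that passed the filter. Sox17 and Foxa2 passed it only through their NC value, so this count does not stand for the list. Gata4 stayed within 2-fold and Afp was at no more than 0.0871 FPKM. The endoderm list summed to 7.16 FPKM in ESCs and 18.5 in NCs. Of 4 fibroblast markers 3 were called higher (Col1a1, Col3a1 and Dcn) and 1 lower (Thy1), beside 12.0% and 10.2% of those rows. Here Col3a1 and Dcn passed the filter only through their NC value. The fibroblast list summed to 16.1 FPKM in ESCs and 20.6 in NCs. Mesoderm markers summed to 3.06 and 2.07 FPKM and trophectoderm markers to 6.02 and 7.69 FPKM, with 0 called in either list. Only 1 of 5 mesoderm markers and 2 of 4 trophectoderm markers passed the filter (Eomes in both lists). Few calls were therefore possible, and their absence does not show that these lineages stayed the same. The part of these cell types in the FGF levels was not tested.

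The scale of the 2 columns was also compared. The FPKM values summed to 770592 in ESCs and 628679 in NCs, and over the 11717 rows with at least 1 FPKM in both the median log2 difference was -0.05. Of all calls 53.9% were higher in NCs, and 71.5% when both columns were rescaled to the same total, which shifted log2 differences by about 0.29. Rescaling also brought Fgf13 past 2-fold (log2 difference 1.17), and it left Fgf4, Fgf5 and Fgf17 lower.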

How the data were processed

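RNA of 3 ESC and 3 NC samples had been sequenced from TruSeq libraries on an Illumina HiSeq instrument. Per the submitters' processing notes and the methods, the authors aligned reads to mm10 with TopHat2 (version 2.0.8, which used Bowtie2 version 2.1.0) and assembled transcripts with Cufflinks 2.0.2 and Cuffmerge. The deposited FPKM values are 1 per gene and condition, estimated by the authors with Cuffdiff over 3 samples, whose version and normalization option are not given in the sources used here. The heading of the NC column reads FPK and was taken as FPKM. The deposited table also holds the authors' fold changes, test statistics, p-values, q-values and significance calls, which were not used.

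The 10 genes, the gene lists and the rules were chosen with earlier results of these data known. From the values, log2((NC + 0.1)/(ESC + 0.1)) was computed for every row, and rows with at least 1 FPKM in either condition and a 2-fold difference were called. The design allowed for limma on single samples, but with 1 value per condition no test was run. Named genes were the 10, all other Fgf rows, listed pathway and marker genes at the ends of their range or past 2-fold, the genes from Cttn to Ccnd1, and the 3 rows nearest in level to the genes with the largest decrease and increase. Some other genes of these lists (Fgfr1, Fgfr4, Etv1, Egr1, Dusp6, Frs2, Ext1, Ext2, Sulf1, Nes and Map2) were named after their values were seen. A result for 1 gene within this rule is not reported here.

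The depth per sample is unknown. The value of 1 fragment was read from steps in the low values of single-transcript genes, assuming fragments of 200 bases, a step chosen after the data were seen. In a transcript with 1 kb open to fragments, the larger step gave a floor of 3 fragments of 0.0414 FPKM in ESCs and 0.0408 in NCs. Of the 221 lowest ESC values 65.2% lay in the 2 steps, and of the 291 lowest NC values 77.7%. The floor covers counting error only. Positions and neighbours came from GENCODE M21 on GRCm38 (the assembly of mm10) and promoter windows from RefSeq on GRCm38.p6. Alternatives were other pseudocounts, filters and fold limits, centring on the median, rescaling of columns to a total of 1000000, and other sets of FGF genes. The computation was tested on simulated data. Python 3.11.15, numpy 2.4.6, pandas 2.3.3 and matplotlib 3.10.9 were used.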

Additional observations from a re-analysis of the deposited data

How the results depend on the processing

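The decreases of Fgf4, Fgf5 and Fgf17 kept their direction and their call under every alternative tried but one: requiring 1 FPKM in both conditions removed all 3 genes, so that 0 FGF genes were lower, and left 845 rows higher and 901 lower over the table. Under that filter 7 pathway genes were higher and 5 lower, because Flrt2, Klb and Spry4 were removed. The count of FGF genes higher, 1 as reported, was less stable. It was 0 with 1 FPKM added or at a 4-fold limit. It was 2 with a filter of 0.1 FPKM or no filter (Fgf1 and Fgf9), at a 1.5-fold limit (Fgf1 and Fgf13) and with rescaled columns (Fgf1 and Fgf13). At 1.5-fold, 16 pathway genes were higher and 12 lower, and 2688 rows were higher and 2534 lower over the table. At 4-fold, 4 pathway genes were higher, and 599 rows were higher and 444 lower. With rescaled columns 2521 rows were higher. The Fgf9 difference ranged from 0.57 (1 FPKM added) to 4.67 (no pseudocount) on the log2 scale. Between the alternatives, 43 values of the main counts and shares stayed within the limits set and 17 moved past them. No paired analysis was possible because the table holds 1 value per condition, and for the same reason no sample could be left out. Depth limits Fgf9 in ESCs most.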

Other observations

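The listed genes of heparan sulfate enzymes, 7 that build or sulfate the chains and 2 that remove sulfate (Sulf1 and Sulf2), had higher levels in NCs in 8 of 9 cases, with a median log2 difference of 0.71. Over all rows that passed the filter, the median was -0.03. Of the 9, 2 were called higher and 0 lower, beside 12.0% and 10.2% of all rows that passed. The 8 include Sulf1, whose levels were close (13.8 and 14.8 FPKM). Hs6st2, a 6-O-sulfotransferase, stood at 1.47 FPKM in ESCs and 14.5 in NCs, and Ndst1, an N-deacetylase and sulfotransferase, at 5.52 and 14.1 FPKM. Ext1 (15.8 and 28.4 FPKM) and Ext2 (15.2 and 26.4 FPKM), which encode the chain polymerase, were higher in NCs and within 2-fold. Sulf2, which removes 6-O-sulfate, was the only gene of the list with the lower level in NCs (38.9 and 38.0 FPKM).

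The rows nearest to Fgf4 in both levels were Tcl1 (50.3 FPKM in ESCs and 1.05 in NCs), a coactivator of AKT, 2410007B07Rik (67.7 and 0.379 FPKM) and Triml1 (28.8 and 0.732 FPKM). Their Euclidean distances from Fgf4, over the 2 log2 levels, were 0.505, 0.938 and 1.19. The rows nearest to Fgf9 were Ramp1 (0.0237 and 0.499 FPKM), Gm7104 (0.0213 and 0.488 FPKM) and Hmx2 (0.0244 and 0.499 FPKM), at distances of 0.0514 to 0.0595. With 1 value in each of the 2 conditions, this likeness describes levels alone.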
